A study of Mus musculus with 2 samples.

Results

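The proteasome genes of the mouse were followed through adult spermatogenesis: the subunits of the 20S core particle and the 19S regulatory particle, their assembly chaperones, the proteasome activators and the inhibitor Psmf1. Members were the listed genes whose symbols begin with Psma to Psmg and a number, pseudogenes left out, which gave 50 of 50686 genes. They were 8 core alpha genes, 7 constitutive and 4 inducible or tissue-restricted core beta genes, 6 ATPase genes and 11 other genes of the 19S particle, 3 chaperones of the 19S particle, 4 chaperones of the 20S particle and 6 activators or inhibitors. The rule also took in Psmc3ip, a cofactor of the recombinases of meiosis that is no proteasome subunit. It stayed in the counts and shares of the members unless said otherwise, and its own values are given apart. Single-cell RNA from the testes of 2 wild-type C57Bl/6J Crl mice, littermates aged 8 weeks and untreated, had been collected in 1 droplet library per mouse. The suspension had been passed through a strainer meant to keep the number of somatic cells low. Mouse 1 gave 27450497 UMIs in 1237 cells and mouse 2 gave 30302332 UMIs in 1315 cells, and 0 barcodes were shared between the mice.

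The proteasome degrades ubiquitin-tagged proteins. Its core is a barrel of stacked rings, in which outer alpha rings control entry and inner beta rings hold the catalytic sites, and the 19S particle recognises, unfolds and feeds in the substrate. Meiotic and haploid germ cells are known for a variant called the spermatoproteasome, in which the alpha subunit PSMA8 takes the place of its paralog PSMA7 and the activator PSME4 (PA200) can take the place of the 19S particle.

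Cells were grouped by K-means clustering without the proteasome genes, their associated genes, the antigen presentation genes and the cell type markers. The groups were thus not built from what was compared or from the genes that named them. By their markers, 162 cells were early spermatocyte-like, 529 pachytene or later spermatocyte-like, 433 round spermatid-like and 703 elongating or condensing spermatid-like (the early, pachytene, round and elongating classes below). The last class held a smaller cluster of 202 cells, in which 11 of 14 round spermatid markers were high as well, and a larger one of 501 cells. A further 705 cells led by Ssxb3, Ssxb1 and Ssxb2 had only 3 of 14 pachytene markers and stayed unnamed. They lay between the pachytene and round classes in the ordering of cells and are called the Ssxb cluster here. Only 7 Sertoli-like cells, 5 Leydig-like cells and 8 cells led by Ptma, Hells and Ncl were left, too few for a test. Levels are given in CPM, a gene's UMIs scaled to 1000000 UMIs of a mouse and cluster. Log2 differences with an SE come from the main fit, which scales the sums by TMM factors. They are therefore on another scale than CPM and need not equal the ratio of CPM values. Each captured molecule is counted once at its 3' end, so transcript length does not enter. Differences in capture between genes were not tested. In the pachytene class the 4 haemoglobin genes together stood at 260 CPM in mouse 2 and 3.05 CPM in mouse 1, and in the larger elongating cluster at 181 and 9.47 CPM. Their part in the results was not tested, and the values of both mice are therefore given throughout.

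Among the germ cell classes, proteasome transcripts took the largest share of UMIs in the early class and had the highest mean of UMIs per cell in the pachytene class. The 50 genes took 1.03% of all UMIs in mouse 1 and 1.01% in mouse 2 in the early class, 0.816% and 0.840% in the pachytene class, 0.847% and 0.842% in the Ssxb cluster and 0.737% and 0.743% in the round class. The share was 0.565% (exact 95% binomial interval 0.559 to 0.572) and 0.573% (0.566 to 0.579) in the elongating or condensing class, where such intervals cover counting error only. In UMIs per cell, a mean over cells here and below, the 50 genes stood at 215 and 220 in the early class, 276 and 286 in the pachytene class, 172 and 174 in the round class and 85.4 and 100 in the elongating class. All UMIs per cell had means of 33799 and 34036 but medians of 19812 and 22017 in the pachytene class. The medians were 16937 and 20098 in the early and 22670.5 and 21629 in the round class. Cells with many UMIs thus raised the pachytene mean, and medians of the members' UMIs per cell were not computed. The 8 cells led by Ptma, Hells and Ncl had a share of 1.08% and 1.32%. The order of these 4 classes was the same in both mice on either scale, and with 1 animal against 1 the mice were not tested against each other. Of the 42 members with at least 500 UMIs, 28 (66.7%), Psmc3ip among them, had their highest level in the early class in both mice. The share was 26.3% of the 7896 genes with as many UMIs. The pachytene class held the highest level of Psmd3, Psmd7 and Psmd8 (7.14% of members, 22.0% of all genes). The Ssxb cluster held that of Psmd11, Psmd12, Psmd9 and Psme4 (9.52% and 10.5%). In the smaller elongating cluster Psme3 was highest (2.38% and 8.78%), and in the larger one Psma6 and Psmf1 were (4.76% and 8.14%). For 4 members, Psmb6, Psmc2, Psmc3 and Psmd10, the highest cluster differed between the mice, as for 984 of the 7896 genes. No member was highest in the round class in both mice, where 11.7% of all genes were.

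**Figure D1:**
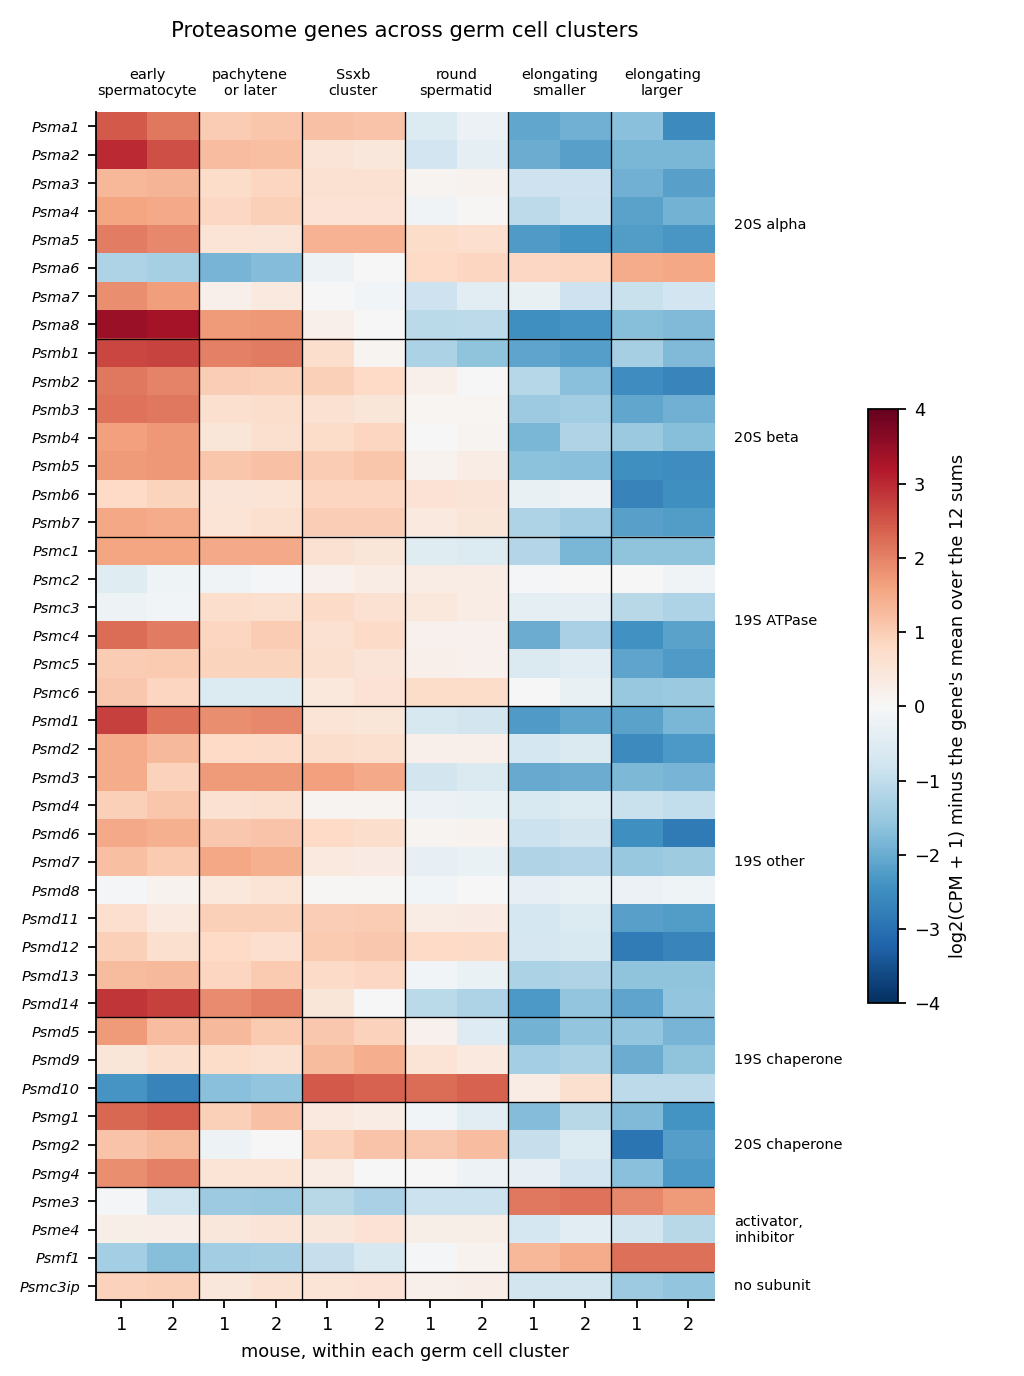
Heat map of the 42 members with at least 500 UMIs, each cell showing log2(CPM + 1) minus the gene's mean over the 12 sums of 6 germ cell clusters and 2 mice, with genes grouped by role. Most genes run from red in the early class to blue in elongating cells, while Psma6, Psme3 and Psmf1 run the other way and Psmd10 is highest in the Ssxb and round clusters.

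The falling total hid 3 members whose share of UMIs rose late. Without Psma6, Psme3, Psmf1 and Psmc3ip, the other 46 genes fell from 0.922% and 0.910% of UMIs in the early class to 0.209% and 0.201% in the larger elongating cluster. In UMIs per cell, the same 46 genes stood at 193 and 198 in the early class, were higher at 251 and 258 in the pachytene class and were at 26.3 and 27.5 in the larger elongating cluster. All UMIs per cell went from a mean of 20945 and 21817 to 12575 and 13637, and less RNA in a cell and a lower capture of its RNA cannot be told apart here. These 4 genes were set apart after their values had been seen.

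Of the 8 alpha genes, 7 were highest in the early class in both mice, and Psma8 had the largest fall from there to the pachytene class. Psma8 stood at 416 CPM in mouse 1 and 375 CPM in mouse 2 in the early class, 121 and 124 in the pachytene class, 42.6 and 36.7 in the Ssxb cluster and 16.9 and 17.3 in the round class. It was lowest in the smaller elongating cluster, at 5.83 and 6.34 CPM, and the mice did not overlap between neighbouring clusters up to that point. The paralog it replaces, Psma7, stood at 56.2 and 48.7 CPM in the early class and at 7.46 and 8.18 CPM in the larger elongating cluster. In that larger cluster 37 and 31 Psma8 UMIs stood beside 26 and 25 Psma7 UMIs. Both genes fell from the early to the pachytene class, by 1.40 ± 0.13 (SE) on the log2 scale for Psma8 (adjusted p = 2.7e-08) and by 1.22 ± 0.19 for Psma7 (adjusted p = 1.9e-05).

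The UMIs of the 2 paralogs were therefore set beside each other. Whether both genes are captured and mapped equally well was not tested. Early spermatocyte-like cells held 7.40 Psma8 UMIs for each Psma7 UMI in mouse 1 (exact 95% interval 5.64 to 9.86) and 7.69 in mouse 2 (6.34 to 9.39). The ratio was 7.04 and 6.32 in the pachytene class, 2.92 and 2.75 in the Ssxb cluster and 2.15 and 1.62 in the round class. In the elongating or condensing class it was 0.980 (0.647 to 1.48) and 1.04 (0.684 to 1.59), from 49 Psma8 UMIs in each mouse. In Sertoli-like cells, somatic support cells, 55 Psma7 UMIs stood beside 1 Psma8 UMI in mouse 1 and 5 beside 1 in mouse 2. Leydig-like cells, the androgen-producing cells, held 0 Psma8 UMIs in both mice beside 1 and 19 Psma7 UMIs. Of the 8 cells led by Ptma, Hells and Ncl, those of mouse 1 held 4 Psma8 and 13 Psma7 UMIs and those of mouse 2 held 0 and 28.

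Psma6, the gene of another alpha subunit, ran against most other alpha genes. Psma6 stood at 314 and 295 CPM in the early class and at 201 and 218 in the pachytene class, then at 638 and 722 in the Ssxb cluster and 1269 and 1340 in the round class. It reached 2056 and 2134 CPM in the larger elongating cluster, the highest level of any member in any germ cell cluster. From the pachytene to the round class it rose by 2.96 ± 0.15 on the log2 scale (adjusted p = 1.9e-13), and from the round to the elongating or condensing class by 1.29 ± 0.14 (adjusted p = 9.8e-08). In that last class as a whole Psma6 stood at 1780 and 1751 CPM, a smaller rise than the log2 difference gives. The median difference over all genes in this step was -0.03 with TMM and -0.87 with plain totals. In UMIs per cell, Psma6 went from 6.80 and 7.41 in the pachytene class to 29.6 and 31.3 in the round class and 25.8 and 29.1 in the larger elongating cluster. The smaller elongating cluster held 30.1 and 33.9. Per cell, Psma6 was thus lower in the larger elongating cluster than in the round class, while its share of UMIs was higher. Psma5 was the alpha gene with the largest late fall, from 73.1 and 69.7 CPM in the round class to 8.33 and 7.86 in the larger elongating cluster, a log2 difference between the classes of -2.31 ± 0.17 (adjusted p = 2.6e-10).

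RefSeq lists 2 starts for Psma6 (GRCm38.p6, plus strand), and the deposited counts are per gene, so they do not tell which start was used. Both windows, from 250 bases before to 50 after the start, are shown because Psma6 is the member with the strongest late level. The first is at chr12:55383972-55384271 and the second at chr12:55398575-55398874, with no part in capitals.
Psma6, first start: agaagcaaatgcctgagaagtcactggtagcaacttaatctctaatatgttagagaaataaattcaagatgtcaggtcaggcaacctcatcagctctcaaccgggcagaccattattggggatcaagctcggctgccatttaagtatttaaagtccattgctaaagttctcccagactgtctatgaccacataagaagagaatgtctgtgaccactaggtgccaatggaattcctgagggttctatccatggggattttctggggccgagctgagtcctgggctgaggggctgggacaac
Psma6, second start: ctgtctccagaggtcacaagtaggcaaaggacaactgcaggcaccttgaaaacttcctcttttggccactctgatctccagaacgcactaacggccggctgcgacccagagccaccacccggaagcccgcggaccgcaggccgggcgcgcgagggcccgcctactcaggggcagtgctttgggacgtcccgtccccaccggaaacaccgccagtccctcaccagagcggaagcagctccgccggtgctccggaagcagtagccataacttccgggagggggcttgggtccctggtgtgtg
Neither window held TGACNNNGC, the core of the antioxidant response element through which NFE2L1 and NFE2L2 act on proteasome genes in stress, on either strand. The core occurred in the windows of 6 of the 42 members found in the RefSeq table (14.3%) and of 14% of 27025 genes, and the windows with it were those of Psmb5, Psmb6, Psmc6, Psmd12, Psmd9 and Psme4. In Psmb5, the gene of a catalytic beta subunit, it begins at position -47 from the start (chr14:54617946-54618245, minus strand, core in capitals).
Psmb5: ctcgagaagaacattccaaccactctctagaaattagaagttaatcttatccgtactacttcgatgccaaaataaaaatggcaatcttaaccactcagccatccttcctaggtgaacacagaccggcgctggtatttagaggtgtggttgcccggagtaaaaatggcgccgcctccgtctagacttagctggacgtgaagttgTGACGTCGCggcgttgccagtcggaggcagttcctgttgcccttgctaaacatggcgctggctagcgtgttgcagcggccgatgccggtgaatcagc

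Alpha rings hold each position once, so the UMIs of the genes for the positions were set beside each other, with Psma7 and Psma8 summed as 1 position. These are shares of RNA. Protein was not measured, so they do not give the make-up of the rings. In the early class no position held more than 23.3% of alpha UMIs in mouse 1 or 23.0% in mouse 2, and the highest exceeded the lowest 3.48-fold in mouse 1 and 4-fold in mouse 2. Psma6 made up 50.1% and 53.4% of alpha UMIs in the Ssxb cluster, 77.2% and 77.1% in the round class and 95.4% and 95.8% in the larger elongating cluster. There, 7160 and 6519 Psma6 UMIs stood beside 24 and 10 of Psma1. In the beta ring the highest position was Psmb6 in every germ cell cluster, with 27.5% and 29.1% of beta UMIs in the early class and 33.6% and 39.9% in the larger elongating cluster. Its share did not move in 1 direction, being 65.5% and 67.3% in the smaller elongating cluster.

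**Figure D2:**
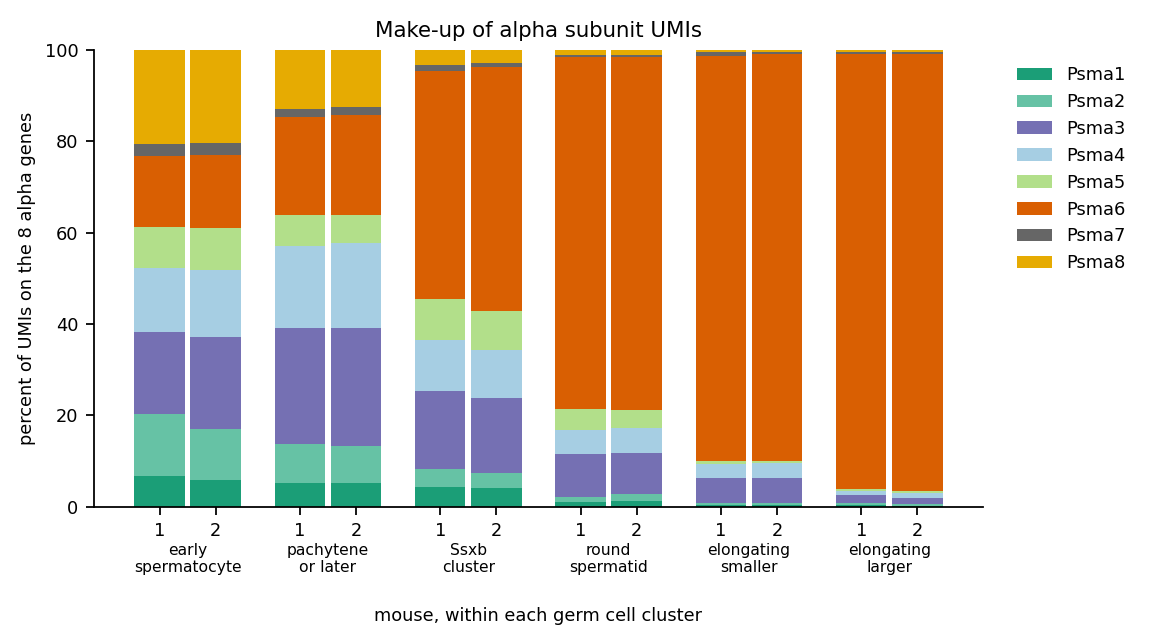
Stacked bars of the share of UMIs on the 8 alpha genes that each gene took, in percent, for each germ cell cluster and mouse. Psma8 shrinks and Psma6 grows from left to right, up to 95.4% and 95.8% in the larger elongating cluster.

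The constitutive beta genes fell in most steps. Psmb1 stood at 320 and 331 CPM in the early class, 203 and 212 in the pachytene class, 81.3 and 53.7 in the Ssxb cluster and 20 and 15.6 in the round class. Its fall from the pachytene to the round class, with a log2 difference of -3.23 ± 0.20 (adjusted p = 6.5e-12), was the largest of any member tested in this step. In the Ssxb cluster the Psmb1 level of mouse 2 was 0.661 of that of mouse 1, the only member past a 1.5-fold difference with 100 UMIs in both mice in any of the 5 groups compared, where 1.59% to 3.8% of all genes passed. The catalytic genes Psmb5, Psmb6 and Psmb7 stood at 263 and 270, 642 and 690 and 435 and 410 CPM in the early class. In the larger elongating cluster Psmb5 was at 13.8 and 13.4 CPM, Psmb6 at 57.4 and 67.1 and Psmb7 at 32.2 and 30.4. Psmb3, a non-catalytic position, had the largest early fall of the ring, from 179 and 172 to 61.6 and 64.3 CPM.

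Of the inducible or tissue-restricted beta genes, only Psmb10 had more than 2 UMIs. Psmb8 had 2 UMIs, Psmb9 had 1 and Psmb11, a subunit known from the thymus, had 2 in all 2552 cells. Psmb9 was at 0 UMIs in every germ cell cluster, where the 5564 UMIs of Psmb6 in the pachytene class of mouse 1 bound the ratio of Psmb9 to Psmb6 below 6.63e-04 (exact 95% interval). Psmb10 had 188 UMIs and was highest in the early class, at 15.9 and 11.1 CPM, with 0.0366 and 0.0272 Psmb10 UMIs for each UMI of Psmb7, the subunit it replaces. It fell to 4.10 and 3.22 CPM in the pachytene class, a log2 difference of -1.51 ± 0.38 (adjusted p = 0.0026). Among other genes of antigen presentation, the peptide transporter genes Tap1 and Tap2 had 2 and 4 UMIs, but H2-K1, an MHC class I heavy chain, had 2026 and Tapbp, its loading factor, had 1855. H2-K1 stood at 80.5 and 64.0 CPM in the early and 68.4 and 74.2 in the pachytene class, and fell to 9.53 and 7.95 in the round class (adjusted p = 5.1e-11). Tapbp fell in the same step from 49.1 and 56.1 to 16.4 and 16.1 CPM (adjusted p = 4.5e-07). Nlrc5, a regulator of antigen presentation genes, stood at 0.476 and 0.507 CPM in the round class at 7.28 and 14.1 in the smaller elongating cluster and at 4.02 and 6.87 in the larger one. The 8 immune cell markers summed to 4.53 and 9.13 CPM in the round class, 18.5 and 22.9 in the smaller and 34.7 and 42.9 in the larger elongating cluster, where 5 and 2 of them were at 0 UMIs, and their part in the result was not tested.

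Among the ATPases of the 19S particle, which form a ring and unfold the substrate, Psmc3 and Psmc2 stood above the others. Psmc3 was at 791 and 842 CPM in the early class, 1474 and 1411 in the pachytene class, 1548 and 1372 in the Ssxb cluster, 1218 and 1122 in the round class and 421 and 382 in the larger elongating cluster. It rose from the early to the pachytene class by 1.1 ± 0.14 on the log2 scale (adjusted p = 2.3e-06). Psmc2 stayed between 413 and 705 CPM in all 12 sums. The 4 other ATPases lay lower. Psmc6 dipped to 27.7 and 28.0 CPM in the pachytene class between 88.0 and 75.2 in the early and 68.8 and 70.0 in the round class, and both steps were called (adjusted p = 1.1e-06 and 2.0e-09). Psmc1 fell from 121 and 120 CPM in the pachytene class to 29.3 and 27.9 in the round class (adjusted p = 1.3e-09). Psmc4 fell in all 3 steps by the main test, although the middle step was not called with DESeq2. It went from 171 and 153 CPM in the early class to 6.68 and 10.4 in the elongating or condensing class. Psmc3 and Psmc2 together thus carried most ATPase UMIs in the larger elongating cluster, where 1976 and 1609 UMIs of Psmc2 stood beside 20 and 22 of Psmc4.

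Of the 11 other 19S genes, 8 were called lower and 1, Psmd12, higher in the step from the pachytene to the round class, where 37.5% and 37.1% of all genes were. With all 3 scalings 7 were lower and none was higher, where 28.3% and 33.6% of all genes were. Psmd14, the deubiquitinase that removes ubiquitin chains, fell from 61.1 and 66.5 to 6.91 and 6.09 CPM, a log2 difference of -2.98 ± 0.22 (adjusted p = 9.5e-11). Psmd3, a lid subunit, went from 75.7 and 76.3 to 13.3 and 14.9 CPM (adjusted p = 5.2e-10), after a rise from 64.6 and 43.8 CPM in the early class (adjusted p = 3.3e-04). Psmd4, a ubiquitin receptor, changed less, from 358 and 368 to 198 and 193 CPM (adjusted p = 5.5e-04). Psmd12 and Psmd8, further lid subunits, behaved differently later on. Psmd12 stood at 194 and 190 CPM in the round class and at 35.2 and 43.4 in the elongating or condensing class. This was the largest late fall of these genes, at -1.43 ± 0.14 on the log2 scale (adjusted p = 3.5e-08). Within that class, the larger cluster held Psmd12 at 15.2 and 17 CPM. Psmd8 stood at 454 and 483 CPM in the round class and at 422 and 435 in the larger elongating cluster.

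Of the chaperones that assemble the 19S particle, Psmd10 (gankyrin) had the largest change of any member. Psmd10 had 3 and 5 UMIs in the early class, or 2.81 and 2.06 CPM, and 5.15 and 5.50 CPM in the pachytene class, then 105 and 99.8 CPM in the Ssxb cluster and 91.5 and 99.9 in the round class. From the pachytene to the round class it rose by 4.49 ± 0.18 on the log2 scale (adjusted p = 7.7e-15), and it fell to 8.33 and 8.51 CPM in the larger elongating cluster. Psmd10 was the only member on chromosome X (140948429 to 140956728, GRCm38, minus strand). The X chromosome is known to be silenced in pachytene spermatocytes. Of the 418 X-linked genes tested here, 362 (86.6%) were called higher in the round than in the pachytene class, where 37.1% of all genes were. The median log2 difference of the 418 was 4.15, against -0.11 over all genes. From the early to the pachytene class 65 of the 418 (15.6%) were called higher and 13 lower, with a median of 0.65. Of all genes 25.1% were called higher and 23.2% lower in that step, with a median of 0.02. Whether this silencing had a part in the change of Psmd10 was not tested. The autosomal chaperone Psmd5 went the other way in this step, from 16.8 and 14.1 to 7.15 and 4.06 CPM (adjusted p = 3.7e-04). Psmd9, also autosomal, was not called, at 88.3 and 83.8 CPM in the pachytene and 78.6 and 69.2 in the round class.

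The chaperones of the 20S particle, which build the alpha ring, all fell from the early to the pachytene class, where 4 of 4 were called lower and 23.2% of all genes were. Psmg4 fell most, from 80.5 and 88.8 to 31.9 and 31.5 CPM (adjusted p = 1.8e-05). Psmg2 rose again to 111 and 125 CPM in the round class after 45.0 and 52.2 in the pachytene class (adjusted p = 4.2e-08), and then had the largest late fall of the group, with a log2 difference of -1.84 ± 0.19. Its partner Psmg1 did not return, with 55.3 and 63.9 CPM in the pachytene and 26.0 and 20.6 CPM in the round class. Psmg3 had 240 UMIs in all and fell from 7.54 and 8.45 to 0.238 and 1.18 CPM between these classes (adjusted p = 5.9e-06), the last values resting on few UMIs.

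The activators went separate ways. Psme3 (PA28 gamma), a nuclear activator that works without ubiquitin, stood at 68.3 and 40.9 CPM in the early class, 25.7 and 24.8 in the pachytene class and 39.1 and 39.4 in the round class. It then stood at 312 and 328 CPM in the smaller elongating cluster and 272 and 234 in the larger one, without overlap with any earlier cluster. In the elongating or condensing class as a whole Psme3 stood at 287 and 279 CPM. The rise from the round class to that class was 3.71 ± 0.16 on the log2 scale with TMM scaling (adjusted p = 1.4e-13). Psme3 UMIs per cell rose as well, from 0.911 and 0.921 to 7.14 and 8.31 in the smaller cluster. Psmf1 (PI31), known as an inhibitor of the core in vitro, stood at 101 and 80.1 CPM in the early class, 253 and 287 in the round class and 1194 and 1217 in the larger elongating cluster. With TMM scaling Psmf1 rose by 1.73 ± 0.14 in the middle step (adjusted p = 8.1e-10) and by 2.73 ± 0.15 in the last (adjusted p = 2.9e-12). In the elongating or condensing class as a whole it stood at 994 and 982 CPM.

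Psme4, whose product acts on acetylated histones in spermatids, changed less than Psme3 and Psmf1. Psme4 stood at 65.5 and 66.9 CPM in the early class, 76.0 and 80.8 in the pachytene class, 77.4 and 83.2 in the Ssxb cluster, 65.5 and 65.1 in the round class and 33.3 and 25.5 in the larger elongating cluster. The main fit called it higher in the first step, but not all 3 scalings did. Its UMIs per cell fell from 1.53 and 1.52 in the round class to 0.507 and 0.580 in the elongating or condensing class, where it stood at 33.6 and 33.1 CPM. The log2 difference of Psme4 in this step was -0.12 ± 0.14 with TMM scaling (adjusted p = 0.52), although it was called lower with plain totals. Psme1 and Psme2, the interferon-induced PA28 subunits, had 72 and 78 UMIs in all. In germ cell clusters Psme1 reached at most 1.31 CPM, whereas Leydig-like cells had 300 and 368 CPM from 3 and 15 UMIs and the cells led by Ptma, Hells and Ncl had 67.1 and 159 CPM from 3 and 7 UMIs. Psme2 was at 300 and 246 CPM in Leydig-like cells, at 138 and 164 in Sertoli-like cells, at 67.1 and 22.8 in the cells led by Ptma, Hells and Ncl and at 5.62 and 4.13 CPM in the early class. Psme2b had 1 UMI and shares its position with other annotated genes on the same strand, so its count is uncertain. Among the other named members, Psmb5, Psmb7, Psmd12, Psmd14 and Psmg3 also overlap annotated genes on the same strand. The effect of these overlaps on their counts was not tested.

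Psmc3ip, whose known role lies in meiotic recombination, was highest in the early class and still abundant in the round class. It stood at 579 and 587 CPM in the early class, 417 and 462 in the pachytene class and 444 and 449 in the Ssxb cluster. The round class had 349 and 361 CPM and the larger elongating cluster 109 and 101. The differences of Psmc3ip in the first 2 steps did not pass the test (adjusted p = 0.46 and 0.91). However, the first was called lower with plain totals and with DESeq2, and the second lower with plain totals and higher with DESeq2. The last was called lower, at -0.51 ± 0.13 (adjusted p = 0.0023).

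**Figure D3:**
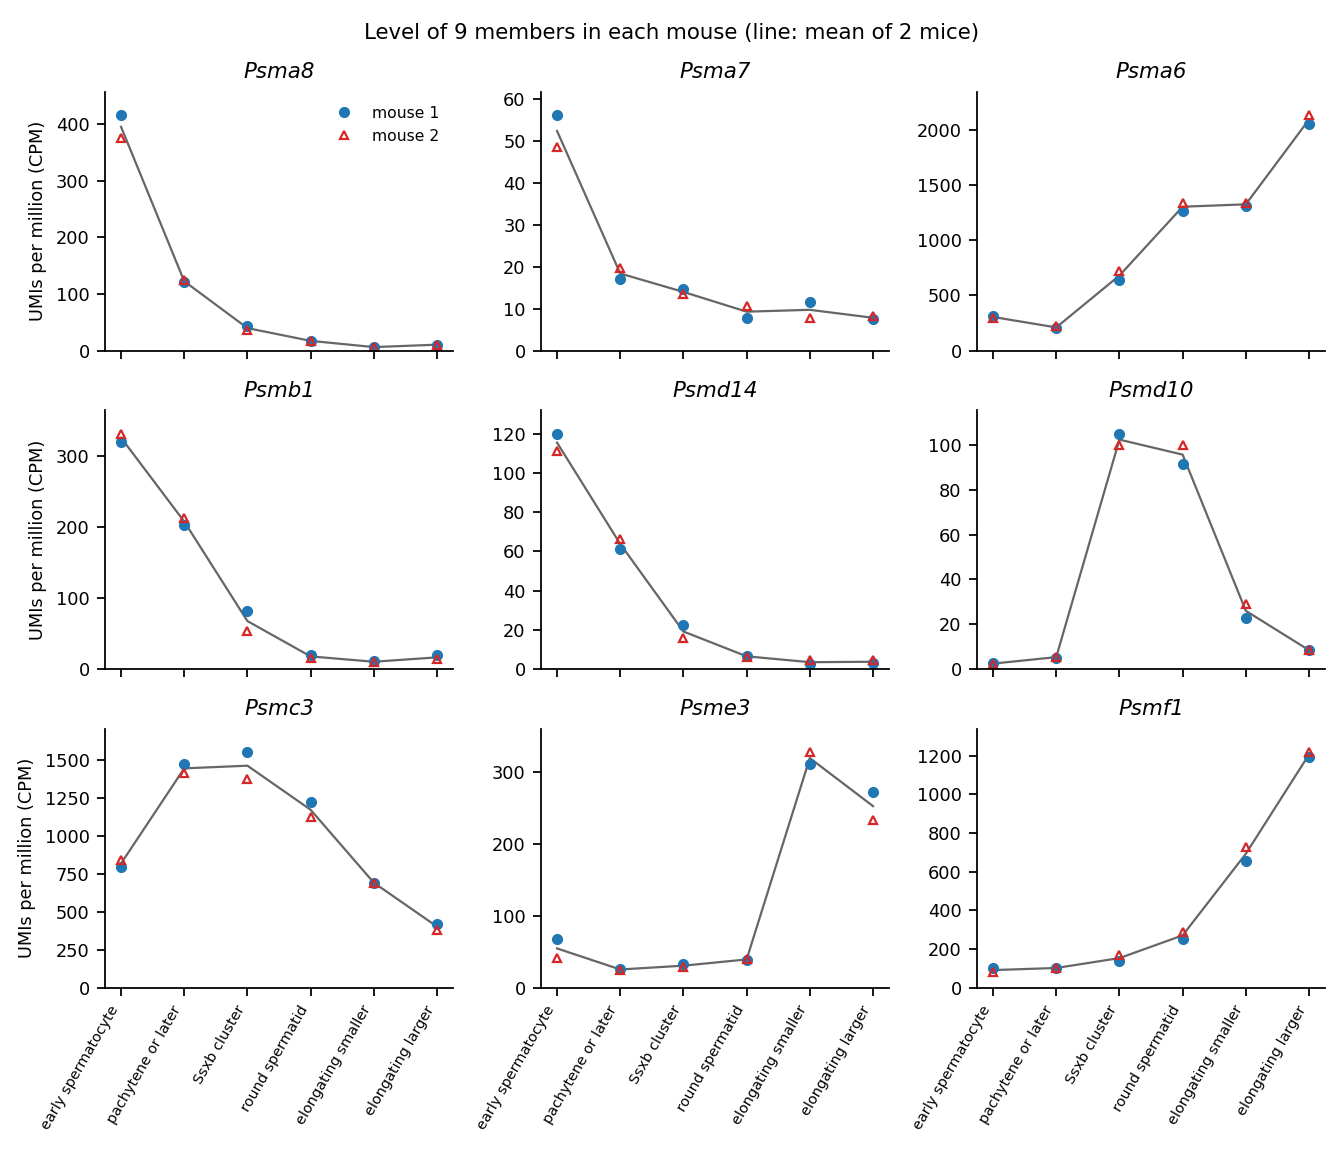
CPM of 9 members in the 6 germ cell clusters, with a filled circle for mouse 1, an open triangle for mouse 2 and a line through the mean of both; each vertical axis starts at 0 and has its own scale. Psma8, Psma7, Psmb1 and Psmd14 are highest in the early class, Psmd10 in the Ssxb and round clusters, Psme3 in the smaller elongating cluster and Psma6 and Psmf1 in the larger one.

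Each step from 1 named class to the next was then tested over 14964 genes with edgeR on 10 sums, 1 for each mouse and group. The Ssxb cluster was a level of its own in the fit and had no step of its own. The step from the pachytene to the round class therefore spans it. Called means an adjusted p under 0.05, and 45 of the 50 members were tested. The inducible genes Psmb8, Psmb9 and Psmb11 and the activators Psme1 and Psme2b fell below the filter. From the early to the pachytene class 9 members rose, with 25.1% of all genes tested called higher, and 20 fell, with 23.2% called lower. The members' median log2 difference was -0.32 against 0.02 over all genes. From the pachytene to the round class 10 members rose (37.1% of all genes) and 23 fell (37.5%), with medians of -0.35 and -0.11. From the round to the elongating or condensing class 7 rose (27.0% of all genes) and 27 fell (26.1%), with medians of -0.59 and -0.03. Of the members tested, 44.4% fell in the first and 51.1% in the middle step, and 22.2% and 15.6% rose in the middle and last steps.

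Part of these calls depended on the scaling. With plain totals the median over all genes was -0.22, -0.43 and -0.87 in the 3 steps, and with DESeq2 size factors -0.22, 0.13 and 0.08. With plain totals 6 members rose (19.5% of all genes) and 31 fell (30.3%) in the first step, 7 rose (33.6%) and 30 fell (45.4%) in the middle step and 3 rose (14.4%) and 36 fell (50%) in the last. With DESeq2 the counts were 5 (18.2%) and 29 (26.4%), 15 (39.2%) and 18 (28.3%), and 8 (27.1%) and 23 (20.6%). Below the median of all genes lay 31, 29 and 33 of the 45 members in the main fit, 32, 29 and 33 with plain totals and 32, 29 and 33 with DESeq2. Psma7, Psmc2, Psmd4 and Psmd8, called higher in the last step by the main fit, had negative log2 differences there with plain totals (-0.15, -0.34, -0.51 and -0.17). Psmb6, called higher in the middle step, had -0.00.

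Calls in the same direction with all 3 scalings were therefore counted too. In the first step they were 5 rises (17.8% of all genes) and 20 falls (22.4%), the rises being Psmc3, Psmd3, Psmd7, Psmd8 and Psmd11. In the middle step they were 7 rises (33.6%) and 18 falls (28.3%), the rises being Psma6, Psmc2, Psmc6, Psmd10, Psmg2, Psme3 and Psmf1. In the last step they were 3 rises (14.4%), Psma6, Psme3 and Psmf1, and 23 falls (20.6%). The falls there took in 4 of 8 alpha genes, 6 of 7 constitutive beta genes, 3 of 6 ATPases, 4 of 11 other 19S genes, 3 of 3 chaperones of the 19S and 2 of 4 of the 20S particle, and Psmc3ip. In the first step 6 of 8 alpha genes and 4 of 7 beta genes fell by this rule, but 1 of 11 other 19S genes, Psmd14, and 4 of them rose.

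Germ cells were also ordered by diffusion pseudotime, built without these genes and divided into 20 bins, and the same sequence appeared within each mouse. The ordering used the cells and principal components of the clusters and began at an early spermatocyte-like cell. It is therefore another view of the cluster result and no separate support, and all 127 cells of bin 1 were early spermatocyte-like. Of 42 members, 21 were highest in the first bin in both mice and 27 within the first 5 bins. The share of all genes with such peaks was not counted. Only 3 were highest in the last 6 bins in both mice, Psma6, Psmf1 and Psme3. Peak bins of the mice lay within 2 bins for 35 of 42 members. Psma8 began at 466 and 464 CPM, Psmd10 peaked at 126 CPM in bin 11 of mouse 1 and bin 12 of mouse 2, and Psme3 peaked at 312 and 362 CPM in bins 16 and 17. Psma6 ended at 2481 and 2380 CPM in bin 20.

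**Figure D4:**
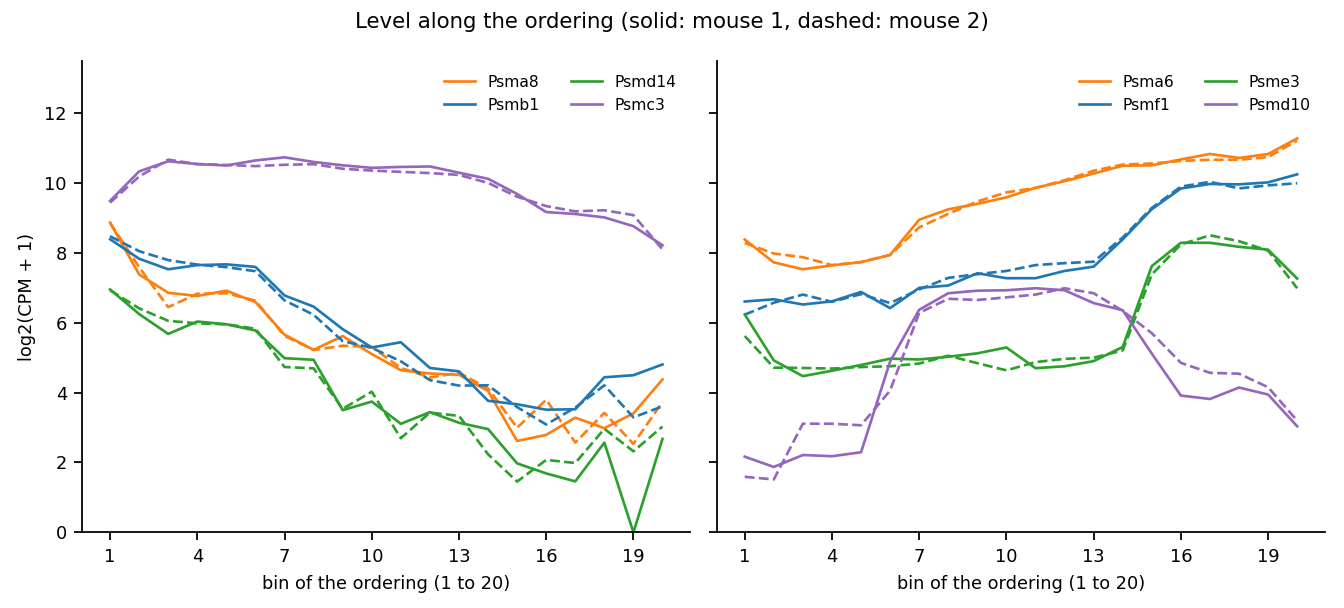
log2(CPM + 1) of 8 members over the 20 bins of the ordering, with solid lines for mouse 1 and dashed lines for mouse 2. Psma8, Psmb1 and Psmd14 decline from the first bin, Psmd10 rises near bin 6 and falls after bin 14, and Psme3 rises near bin 15.

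Genes with the pattern most like Psma8 were Rpl9 (Pearson r = 0.997), Ap1s1 (0.997), Ufl1 (0.996), Fignl1 (0.995) and Fkbp8 (0.995), over 12 sums and among 7896 genes with at least 500 UMIs. These sums share 2 libraries and their depth, so the values are a description.

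Of 33 names fixed for genes that work with the proteasome, 29 were listed and 27 tested. By the main test 6 rose and 10 fell in the first step, where 25.1% and 23.2% of all genes did. In the middle step 9 rose and 12 fell, with 37.1% and 37.5% of all genes, and in the last 10 and 8, with 27.0% and 26.1%. Pomp, which matures the core particle, fell from 184 and 179 to 9.77 and 10.8 CPM between the pachytene and round classes (adjusted p = 4.7e-14). Nsfl1c, a cofactor of the unfolding ATPase VCP, fell in the first step from 93.6 and 74.3 to 20.5 and 20.7 CPM, and again in the middle step to 1.91 and 0.676. Ddi2, a protease that activates NFE2L1, was the other large first fall, from 16.9 and 14 to 3.15 and 4.56 CPM. Ngly1, which deglycosylates NFE2L1, rose in the first step from 75.8 and 92.5 to 215 and 208 CPM. Akirin2, which brings proteasomes into the nucleus, rose from 10.3 and 19.8 to 26.8 and 73.8 CPM (adjusted p = 0.0047), with mouse 2 above mouse 1 in every germ cell cluster.

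Among the late rises was Ubqlnl, a member of the ubiquilin family of shuttle factors that carry ubiquitin-tagged proteins. Ubqlnl stood at 30.0 and 25.2 CPM in the round class, 181 and 206 in the smaller and 409 and 497 in the larger elongating cluster. The test compared the round class with the elongating or condensing class as a whole (adjusted p = 2.5e-14). Nfe2l2 rose in the middle step from 0.0954 and 0.537 to 13.3 and 16.1 CPM (adjusted p = 5.1e-11). It was called lower in the last step and stood at 1.94 and 3.17 CPM in the smaller and 0.574 and 0 in the larger cluster. Sem1, a small 19S subunit outside the naming rule, fell in the last step, tested on the whole class (adjusted p = 9.3e-11). It stood at 648 and 550 CPM in the round class, 70.9 and 49.0 in the smaller and 52.5 and 39.6 in the larger elongating cluster. Adrm1, a ubiquitin receptor of the 19S particle, stood at 53.8 and 53.1 CPM in the round class, 85.9 and 95.8 in the smaller and 87.3 and 81.8 in the larger elongating cluster. Its rise in this step was 1.57 ± 0.15 on the log2 scale by the main fit (adjusted p = 1.8e-08) and 0.71 with plain totals, and was called with all 3 scalings.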

How the data were processed

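Whole-testis cell suspensions of both mice had been processed with the Chromium 3' v2 chemistry. Reads were demultiplexed and counted by the authors with Cell Ranger 2.0.0 and bcl2fastq 2.17.1.14, on a repeat-masked GRCm38 genome with added repeat sequences, and downsampled the reads of mouse 2 when the mice were combined. The deposited values are raw counts of UMIs, in whole numbers, for 2552 cells and 51868 rows, with medians of 17871 and 19184 UMIs per cell. Samples were told apart by the number that ends each barcode. Members and gene lists were chosen with earlier results of these data known.

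Counts were scaled to the median cell, transformed as log2(1 + value), and centred and scaled by row. K-means (K = 9, 10 restarts, seed 42, scikit-learn 1.9.0) ran on 10 principal components of 27593 rows. Members, associated genes, antigen presentation genes and the cell type markers were left out of these rows. A cluster took the class with most markers at 1.5 times the CPM of all cells and at least 10 UMIs, if these were at least 3 and at least 50% of its list (a rule set after the clusters had been seen), and entered tests with at least 20 cells in each mouse. The 25 doublets called by scrublet (scanpy 1.11.5) were kept.

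UMIs were summed per mouse and group and tested with edgeR 4.0.16 in R 4.3.3 (quasi-likelihood, TMM, filterByExpr), with Benjamini-Hochberg adjustment over 14964 genes and 1 spread estimate for all groups. DESeq2 1.42.0 was an alternative. The procedure was also run on simulated counts with changes in the early class only, as many up as down. Such counts cannot test the choice of scaling. P-values rest on the differences between the 2 sums within each group, counting error included, and on spread estimates shared over genes. The same 2 animals recur in every group, and the main fit treats the 10 sums as independent. Sums with the same number come from the same animal. Their deviations from the group means had correlations of 0.0445 to 0.205 over all pairs of groups, so a block for the mouse was an alternative. Intervals are exact binomial ones. Named members are the paralog pairs, activators, inhibitor, Psmb11, Psmd4, Psmd14, Psmc3ip, those with under 10 UMIs and, by role and step, the called members with the largest rise and fall, likewise 2 associated genes per direction, of which 1 is not reported here. Psmd7, Psmd11, Psmd9, Psmg1 and Psma1 were named after their values had been seen. Promoter windows came from RefSeq. Reads and the authors' cell annotations were not used here.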

Additional observations from a re-analysis of the deposited data

Results flagged for a closer look

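One row outside the comparisons, the pseudogene row Psmb6-ps2, held 14 UMIs over all 2552 cells, more than the 3 that a count of 0 allows. Its parent Psmb6 is one of the more abundant members, and whether these UMIs are transcripts of the pseudogene or misplaced reads of Psmb6 was not tested.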

How the results depend on the processing

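Of the calls for named members in the 3 steps, none turned direction under the alternatives run except with plain totals, where 5 did: Psmb6 in the middle step (-0.00) and Psma7 (-0.15), Psmc2 (-0.34), Psmd4 (-0.51) and Psmd8 (-0.17) in the last. Of 62 such calls, 52 held with plain totals, 55 with DESeq2, 59 without the count filter and 50 with cells thinned to 5000 UMIs. With the replicate block for the mouse all 62 held, and counts of rises and falls in the 3 steps were 10 and 24, 10 and 27, and 8 and 28, against 9 and 20, 10 and 23, and 7 and 27 without it. Counts moved by over 1.5 times in 4 cases. In the first step rises went to 5 with DESeq2 and falls to 31 with plain totals. In the middle step falls went to 14 when the Ssxb cluster was counted with round spermatids. In the last step rises went to 3 with plain totals. DESeq2 changes the test as well as the scaling, and the cause of these moves was not tested.

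The share of UMIs on members was 1.04% (mean over cells) and 1.05% (thinned cells) in the early class, 0.744% (clusters from all rows) and 0.746% (without protamine and transition protein UMIs) in the round class and 0.655% without these UMIs in the elongating class. The Psma8 to Psma7 ratio was 8.37 and 8.62 as a mean over cells and thinned in the early class, and 1.17 and 0.850 in the elongating class. With 1 mouse left out there is no test. Shares then ranged from 1.01% to 1.03%, 0.816% to 0.840%, 0.737% to 0.743% and 0.565% to 0.573%, and ratios from 7.40 to 7.69, 6.32 to 7.04, 1.62 to 2.15 and 0.980 to 1.04. Medians of the members' differences, taken within each mouse without a new fit, ranged from -0.36 to -0.25, -0.37 to -0.36 and -0.53 to -0.52. All calls for named members kept their sign. Under the other alternatives the medians moved more, from -0.60 to -0.19, -0.68 to -0.11 and -1.44 to -0.46. The main fit gave -0.32, -0.35 and -0.59. Counting the smaller elongating cluster with round spermatids, or as a level of its own, was added after seeing the data and gave 9 and 22, and 8 and 24, rises and falls in the last step. Members with few UMIs, such as Psme1, Psme2 and Psmg3, were limited by depth.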
